A study of Homo sapiens with 3 samples.

Results

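The distal 3q block is the last 15 Mb of the long arm of human chromosome 3, taken as chr3:183000001-198000000 in the hg19 build. The peaks are those of 2 TFIIH helicases in HT1080, an established cell line from a human fibrosarcoma. Its members were all peaks with a summit inside those limits in either of 2 lists, 1 from a chromatin immunoprecipitation (ChIP-seq) of XPB and 1 from a ChIP-seq of XPD. There were 539 XPB members of 21555 XPB peaks (2.50%) and 434 XPD members of 14570 XPD peaks (2.98%), 973 of 36125 in all. The block was chosen by the number of XPB and XPD peaks in its windows of 1 Mb, so every count, density and spacing given here describes that choice and is no finding of its own.

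Both ChIPs, with a rabbit polyclonal antibody against XPB or against XPD, and an input DNA library that was not enriched came from one pool of formaldehyde-crosslinked HT1080 chromatin. The cells carried no treatment in the labels, and each antibody is represented by 1 library. There is thus no replicate error and no test between antibodies. The intervals given are exact 95% intervals that cover counting error only, and PCR copies are not independent molecules. The number of reads behind either list is unknown, so summit heights and scores are compared between stretches within a list and not as levels between lists. A peak's score is -10 times the log10 of the peak caller's p-value, and its height is the number of fragments piled up at the summit. Both are the authors' deposited values. The protocol text shared by the samples mentions only an anti-CSB monoclonal, so the groups follow the antibody field of each sample.

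XPB and XPD are the helicase subunits of TFIIH, a complex that works in transcription and in nucleotide excision repair. XPB acts as a translocase that helps to melt the promoter at the start of transcription, and XPD unwinds DNA around a lesion during repair. XPD also links the core of TFIIH to the kinase module that phosphorylates the polymerase. Distal 3q alternates between gene-rich and gene-poor segments. In the order of the RefSeq annotation of GRCh38.p14, running towards the end of the arm, it carries EIF4G1, POLR2H, ETV5, EIF4A2, BCL6, LPP, TP63, CLDN1, FGF12, OPA1, HES1, MUC4, TFRC, DLG1 and RPL35A. EIF4G1 and EIF4A2 encode translation initiation factors, POLR2H a polymerase subunit, BCL6, HES1 and TP63 transcription factors, TFRC the transferrin receptor and RPL35A a ribosomal protein. That order is background in another assembly. No hg19 annotation was used, so no peak is placed at any of these genes and no sequence is shown.

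Along the block the peaks fell into 2 dense stretches with a sparse one between them, and both lists followed the same outline. The proximal dense stretch, from 183000001 to 185000000, held 130 XPB and 83 XPD peaks, or 6.5 and 4.15 per 100 kb. The distal dense stretch, from 193000001 to 198000000, held 295 XPB and 269 XPD peaks, or 5.9 and 5.38 per 100 kb. The middle stretch, from 185000001 to 193000000, held 114 XPB and 82 XPD peaks, or 1.425 and 1.025 per 100 kb. XPB density was 4.56 times as high in the proximal stretch as in the middle one (95% interval 3.52 to 5.92), and 4.14 times as high in the distal stretch (3.32 to 5.19). For XPD the same ratios were 4.05 (2.95 to 5.56) and 5.25 (4.08 to 6.81). The XPB list was thus about as dense in both outer stretches, with a distal over proximal ratio of 0.908 (0.736 to 1.12). The XPD list held more peaks per Mb in the distal one, with a ratio of 1.30 (1.01 to 1.68). Peaks lay in clumps, as given below, and these intervals treat them as independent. They are therefore too narrow, and a lower bound of 1.01 does not establish the XPD difference.

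**Figure D1:**
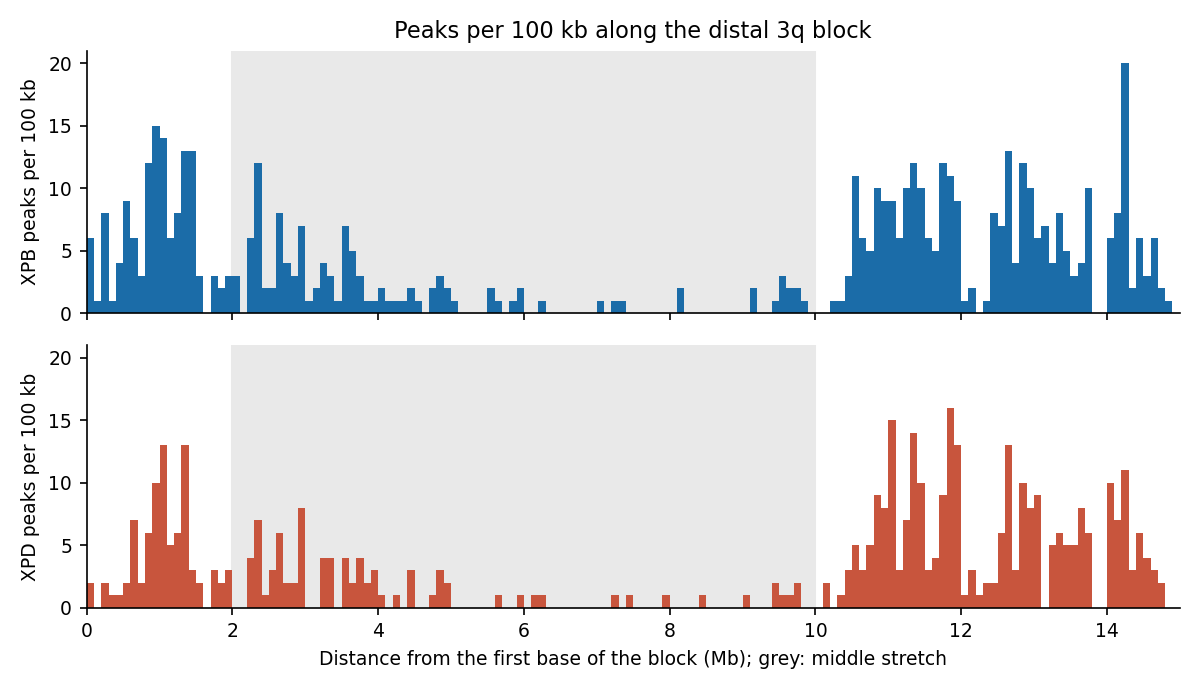
Number of XPB peaks (upper panel) and XPD peaks (lower panel) per 100 kb against the distance in Mb from the first base of the block, with the middle stretch shaded grey. Bars reach 20 XPB and 16 XPD peaks in the distal dense stretch, and counts in the middle stretch thin out towards a floor in which 30 of 60 bins hold no peak of either list.

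The limits were drawn at whole Mb, and the peaks went on thickening over the first Mb inside the proximal limit. The first window of 1 Mb inside the block held 65 XPB and 33 XPD peaks, and the window just before it held 16 and 7. Of those inside, the first 0.5 Mb held 20 XPB and 6 XPD peaks and the next 0.5 Mb held 45 and 27. For XPB the first 0.5 Mb thus already exceeded the 16 of the whole window before the limit. The first XPB summit inside lay at 183003799 with 28 fragments and a score of 333, and the last outside at 182984046 with 23 fragments and a score of 246. For XPD the first inside was at 183003846 with 24 fragments and a score of 167, and the last outside at 182924511 with 22 fragments and a score of 150.3. No peak of either list lay beyond the end of the block, and the last summits were at 197838561 for XPB and 197737184 for XPD.

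The middle stretch was not uniformly sparse. By successive window of 1 Mb, its XPB counts were 47, 28, 15, 7, 1, 3, 2 and 11. The XPD counts over the same windows were 33, 23, 11, 2, 2, 3, 1 and 7. Both lists therefore thinned out over the first windows and reached their lowest counts between 189000001 and 192000000. The first 2 Mb, up to 187000000, held 37.5 XPB and 28 XPD peaks per Mb, which was 5.77 (3.87 to 8.73) and 6.46 (3.99 to 10.7) times the density of the 6 Mb that followed. Those 6 Mb, from 187000001 to 193000000, held 39 XPB and 26 XPD peaks, or 6.5 and 4.33 per Mb. That floor was sparser than chromosome 3 outside the block taken as a whole, with ratios of 0.617 (0.438 to 0.847) for XPB and 0.614 (0.399 to 0.903) for XPD. This comparator includes the dense 3q21 block, described below, which held 465 of its 1881 XPB peaks and 349 of its 1262 XPD peaks. Whether the floor was sparser than the chromosome without both blocks was not tested. The limit at 187000000 was also set after the counts were seen. The middle stretch as a whole was denser than the rest of the chromosome, at 1.35 (1.11 to 1.64) and 1.45 (1.15 to 1.82) times its density.

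Counts per 100 kb were uneven inside the dense stretches too. Of the 50 bins of the distal stretch, 12 held 10 or more XPB peaks, 9 held 10 or more XPD peaks and 6 did both, while 4 held no peak of either list. Of the 20 bins of the proximal stretch, 5 held 10 or more XPB peaks, 3 held 10 or more XPD peaks and 3 did both, while 1 held none. In the middle stretch 1 of 80 bins reached 10 XPB peaks and none reached 10 XPD peaks, and 31 held no peak of either list. The variance of the counts was 3.51 times their mean for XPB in the proximal stretch and 3.30 times in the distal one, and 3.71 and 3.47 times for XPD, where peaks placed independently at one density give a ratio of 1. Peaks within a dense stretch were therefore clumped at this scale. The counting intervals of densities and density ratios do not allow for this clumping and are too narrow.

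The fullest XPB bin was at chr3:197200001-197300000, with 20 XPB and 11 XPD peaks. The next was at chr3:183900001-184000000 with 15 XPB and 10 XPD peaks, followed by chr3:184000001-184100000 with 14 and 13. The bins at chr3:184300001-184400000 and chr3:184400001-184500000 each held 13 XPB peaks but differed in XPD peaks, with 13 in the one and 3 in the other. A bin at chr3:195600001-195700000 tied with them, with 13 peaks in both lists. The 3 fullest XPD bins were at chr3:194800001-194900000 with 11 XPB and 16 XPD peaks, at chr3:194000001-194100000 with 9 and 15, and at chr3:194300001-194400000 with 12 and 14. The other 2 of the 5 fullest XPD bins, at chr3:184000001-184100000 and chr3:184300001-184400000, are the ones named above with 14 XPB and 13 XPD peaks and with 13 of each. Bins picked for many peaks of one list lean towards that list by the choice. Across the 150 bins Spearman's rho between XPB and XPD counts was 0.86 and Pearson's r was 0.84. In the distal stretch alone rho was 0.82 over 50 bins, in the proximal one 0.77 over 20, and in the middle one 0.70 over 80, of which 31 were empty in both. On the floor of the middle stretch alone rho was 0.53 over 60 bins, of which 30 were empty in both. These are descriptions, since bins share their library, chromatin pool and mappability.

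Over all listed peaks, the number of XPB peaks per XPD peak was lowest in the distal dense stretch, but the order of the stretches changed with the score threshold. It was 1.57 (1.18 to 2.09) in the proximal dense stretch and 1.10 (0.926 to 1.30) in the distal one, and 1.39 (1.04 to 1.87) in the middle. Over the whole series it was 1.48 (1.45 to 1.51), so the interval of the distal stretch lay below the series' interval and those of the other stretches included it. The first window of the block had 65 XPB and 33 XPD peaks, a ratio of 1.97 (1.28 to 3.09). The window from 194000001 to 195000000 had 90 XPB and 94 XPD peaks, a ratio of 0.957 (0.709 to 1.29). Among peaks with a score of 200 or more the ratio was 1.54 (1.01 to 2.36) in the proximal stretch, 1.30 (1.02 to 1.65) in the distal one and 1.04 (0.679 to 1.61) in the middle, so the middle was lowest, where the whole series had 1.64 (1.59 to 1.69). From 300 up the distal stretch was lowest again, at 1.44 (0.912 to 2.30), where the whole series had 1.78 (1.68 to 1.89). The proximal stretch then had 3 (1.23 to 8.35) and the middle 1.6 (0.683 to 3.94), with intervals that overlapped that of the distal one. At both thresholds the interval of the distal stretch included the value of the series. With 1 library of unknown depth for each antibody, such ratios are read between stretches only.

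**Figure D2:**
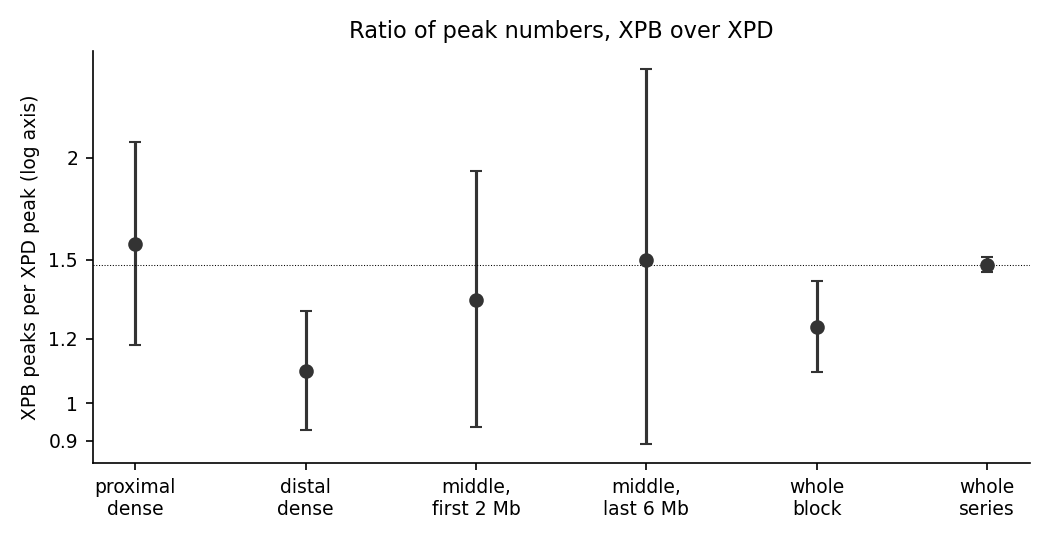
Number of XPB peaks per XPD peak (log axis) in the dense stretches, the 2 parts of the middle stretch, the whole block and the whole series, with exact 95% counting intervals. The distal dense stretch is at 1.10 and the whole series, marked by the dotted line, at 1.48.

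Neighbouring summits of one list lay a few kb apart in the dense stretches. The median distance to the next XPB summit was 7308 bp in the proximal stretch (interval 5369 to 10300), 7041 bp in the distal one (5821 to 8674) and 21705 bp in the middle one (14657 to 36416). For XPD the medians were 8705.5 bp (6674 to 13119), 7761 bp (6284 to 9503) and 23545 bp (16475 to 45866). Gaps of at most 10 kb made up 58.9 and 60.2% of XPB gaps in the proximal and distal stretches and 30.1% in the middle, and 51.2, 57.1 and 28.4% of XPD gaps. On the floor of the middle stretch the medians were 76534.5 bp for XPB and 121259 bp for XPD. Spacing follows from the density that chose the block and is given for scale.

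**Figure D3:**
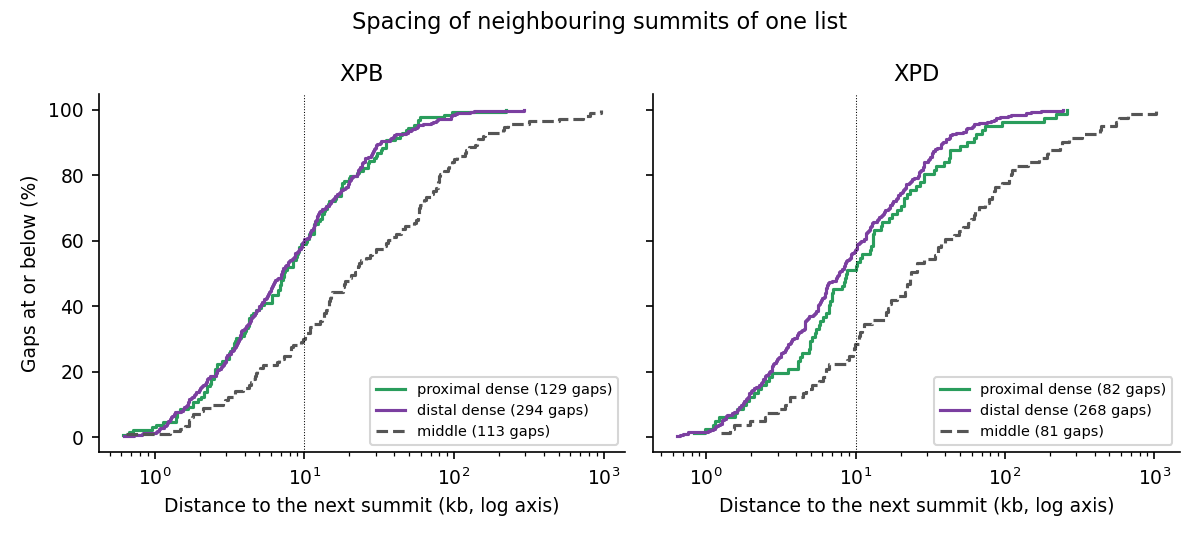
Cumulative percentage of gaps between neighbouring summits of the XPB list (left) and the XPD list (right) against gap length in kb (log axis), for the dense stretches (solid lines) and the middle stretch (dashed line). The dotted line marks 10 kb, which 58.9 and 60.2% of XPB gaps in the dense stretches and 30.1% in the middle do not exceed.

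Most peaks sat in runs, defined as summits of one list at most 10 kb apart. In the distal stretch 82.0% of XPB and 78.8% of XPD peaks were in runs of 2 or more, in the proximal stretch 73.8 and 68.7%, and in the middle 46.5 and 43.9%. Such shares rise with the density that chose the block and are given for scale. The run with most XPB peaks reached from 197186060 to 197254590, with 20 XPB summits over 68.5 kb and 10 XPD summits within the same limits. Its XPB summits had 8 to 24 fragments, and those at 197205879, 197214915 and 197228941 had 21, 22 and 24. The second had 14 XPB summits from 194277381 to 194340711, with 12 XPD summits. The third had 13 from 183890496 to 183934664, with 6 XPD summits. The longest XPD run overlapped the second XPB one and had 14 XPD summits from 194309810 to 194369154, with 11 XPB summits. It was followed by 11 XPD summits from 193984216 to 194038060, with 8 XPB summits, and by runs of 9 from 184364337 to 184395086, with 5 XPB summits, and from 194957806 to 194990937, with 7.

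Some runs belonged largely to one list. A run of 12 XPB summits from 184468139 to 184504530 held 1 XPD summit, with another 12 bp past its last summit. That last site had 26 fragments in both lists, and the other 11 XPB summits had 8 to 16. An XPD run of 7 summits from 197062929 to 197081700 held 2 XPB summits, with another 129 bp before its first summit. These runs were singled out after their values were seen.

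The longest stretch without a summit of either list was 809.9 kb, from 189206526 to 190016474. The next were 579.8 kb, from 191455328 to 192035177, and 505 kb, from 188001927 to 188506580. All of these lay on the floor of the middle stretch. Inside the distal dense stretch the longest such gap was 243 kb, from 196782016 to 197025359, and inside the proximal one 217.5 kb, from 184521215 to 184738725. Assembly gaps and mappability were not examined, so whether these intervals could yield peaks was not tested.

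Dense stretches were dense in ordinary, low peaks. The median XPB summit height was 12 fragments in the proximal stretch (interval 11 to 12), 11 in the distal one (11 to 12) and 13 in the middle one (12 to 14), against 11 over all XPB peaks outside the block. The median XPD height was 13 (13 to 14), 13 (13 to 14) and 14 (13 to 16), against 13 outside. Summits of 20 or more fragments were 41 of 539 XPB peaks, 7.61% (5.51 to 10.2) where the whole list had 6.64%, and 45 of 434 XPD peaks, 10.4% (7.66 to 13.6) where the whole list had 8.74%. Heights on the floor were, if anything, higher, with medians of 14 (12 to 16) for its 39 XPB peaks and 15.5 (14 to 19) for its 26 XPD peaks. Density and median height therefore had different orders along the block, though the height intervals met or overlapped.

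**Figure D4:**
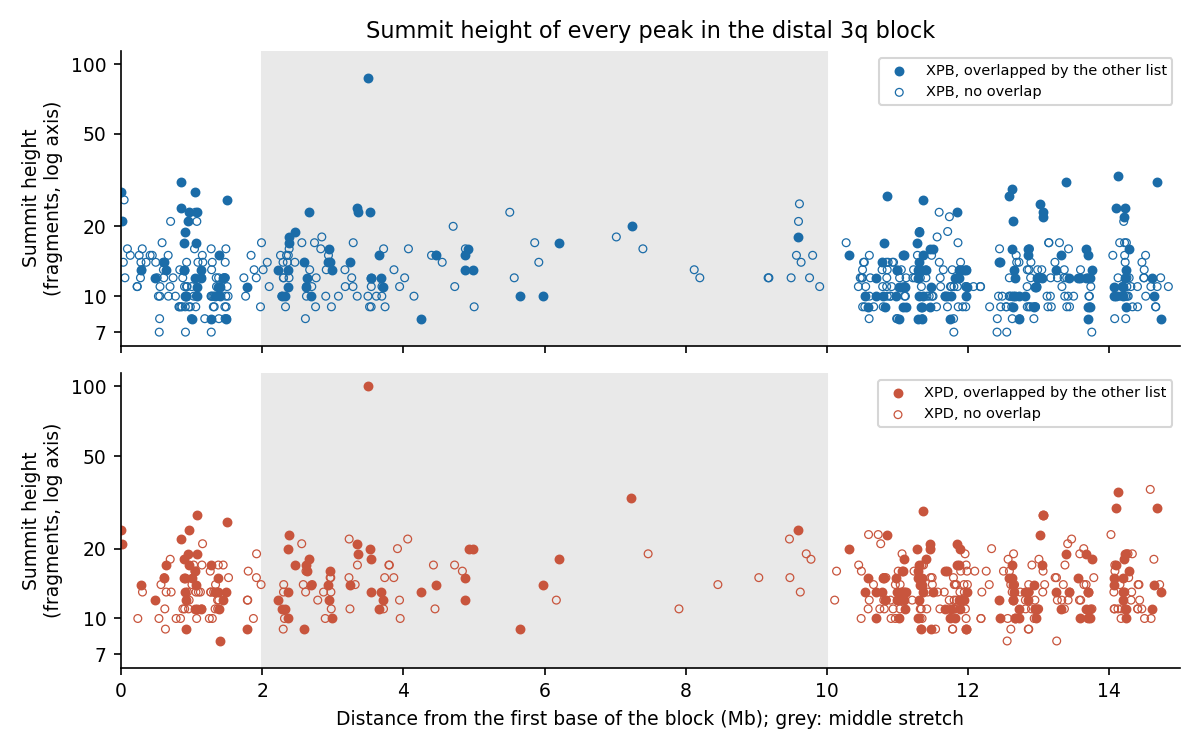
Summit height in fragments (log axis) of all 539 XPB peaks (upper panel) and all 434 XPD peaks (lower panel) against the distance in Mb from the first base of the block. Filled points are peaks overlapped by the other list and open points are not, and the middle stretch, shaded grey, holds the tallest point of either panel, at 87 fragments for XPB and 100 for XPD.

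In the XPB list the median scores had another order than the median heights, while in the XPD list the middle stretch had the highest of both. Within each list the score intervals of the stretches overlapped, so no order of scores is established. The median XPB score was 192 in the proximal stretch (184 to 206), 205 in the distal one (194 to 218) and 189 in the middle one (179 to 201), and 189 outside the block. The median XPD score was 195 (177 to 216), 190.4 (181 to 204) and 205 (186 to 213), and 184.8 outside. In the XPB list the distal stretch had the highest median and the floor the lowest, 182 (166 to 214). Over the whole block the medians were 199 (190.6 to 203) for XPB and 195 (187.2 to 204) for XPD, above the 189 (188 to 190.2) and 184.8 (184 to 186) outside. Elsewhere on chromosome 3 the median scores were 193.2 (190.2 to 197.2) for XPB and 185.7 (182.7 to 188.5) for XPD, with intervals that overlapped those of the block. Scores of 300 or more were reached by 86 XPB peaks, 16.0% (13.0 to 19.3) where the whole list had 14.3%, and by 51 XPD peaks, 11.8% (8.88 to 15.2) where the whole list had 11.9%. The shares of scores of 300 or more were close to the background of the lists.

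Interval width did differ. Members had a median width of 948 bp in the XPB list (916 to 983) and 1101 bp in the XPD list (1050 to 1163), against 830 bp (825 to 836) and 932 bp (926 to 939) for peaks outside the block. Peaks elsewhere on chromosome 3 lay between these, at 886 bp (867 to 902) for XPB and 1019 bp (1002 to 1044) for XPD. The widest medians were in the first 2 Mb of the middle stretch, at 1016 bp for XPB (878 to 1097) and 1215.5 bp for XPD (1099 to 1322), and in the distal stretch, at 983 bp (937 to 1053) and 1142 bp (1061 to 1211), with overlapping intervals. The proximal stretch had 904.5 bp (806 to 960) and 1019 bp (932 to 1149). The narrowest was the floor, at 765 bp (650 to 900) and 904 bp (755 to 1098). Intervals of 1200 bp or more made up 25.8% of XPB members and 42.6% of XPD members, against 14.9 and 23.0% outside. Within classes of height no stretch was the widest throughout, but among XPB peaks the distal one was widest in every class from 10 fragments up. XPB peaks of 10 to 14 fragments had a median width of 945 bp in the distal stretch, 856 bp in the proximal one and 878 bp in the middle, and those of 6 to 9 fragments 1062, 970.0 and 1134 bp. In the same order, those of 15 to 19 fragments had 922, 672 and 796 bp, and those of 20 or more 1305.5, 853 and 1102 bp. XPD peaks of 10 to 14 fragments had 1210, 1025 and 1233 bp in the same order, and those of 15 to 19 fragments 965, 1048 and 968 bp.

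By intervals, XPB members had a partner more often than XPB peaks over the series, beyond counting error, while the XPD share by intervals and both shares by summits were within it. By an overlap of at least 1 bp, 184 XPB members had an XPD partner, 34.1% (30.1 to 38.3), where 26.6% of all XPB peaks did. In the other direction 42.2% of XPD members (37.5 to 47.0) had an XPB partner, where 38.7% of all XPD peaks did, a value inside the interval of the members. Elsewhere on chromosome 3 the shares were 30.3% (28.2 to 32.4) of XPB peaks and 44.7% (41.9 to 47.5) of XPD peaks. Both intervals overlapped those of the members, so the higher XPB share is not particular to the block. By summits within 250 bp, 100 XPB members had a partner, 18.6% (15.4 to 22.1), where 17.9% of all XPB peaks did. The same 100 pairs made up 23.0% (19.2 to 27.3) of XPD members, where 26.4% of all XPD peaks had a summit that close. XPD intervals covered 3.37% of the block, against 0.473% of the span outside it, and XPB intervals covered 3.66%, against 0.628%. The part of this coverage, and of the wider intervals, in the overlap was not tested.

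By stretch, the share of XPB peaks with an overlapping XPD peak was 27.7% (20.2 to 36.2) in the proximal stretch, 37.3% (31.8 to 43.1) in the distal one and 33.3% (24.8 to 42.8) in the middle. For XPD peaks it was 41.0% (30.3 to 52.3), 41.3% (35.3 to 47.4) and 46.3% (35.3 to 57.7). The distal stretch was the one whose XPB share had an interval wholly above the series' 26.6%. No pair of stretches had intervals that stood apart.

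Shares were then compared within classes of interval width. Among XPB peaks under 800 bp, 23.1% of members (17.3 to 29.8) were overlapped, against 18.6% (17.8 to 19.4) outside the block. From 800 to 1200 bp it was 31.3% (25.2 to 38.0), against 26.8% (25.8 to 27.7), and from 1200 bp up 53.2% (44.6 to 61.7), against 49.4% (47.6 to 51.1). The XPD shares were 31.1% (21.8 to 41.7) against 28.0% in the narrowest class, 39.0% (31.4 to 47.0) against 37.5% in the next, and 50.3% (42.8 to 57.7) against 56.3% (54.6 to 58.0) in the widest. In all 3 classes of both lists the intervals of the block and of the rest overlapped.

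**Figure D5:**
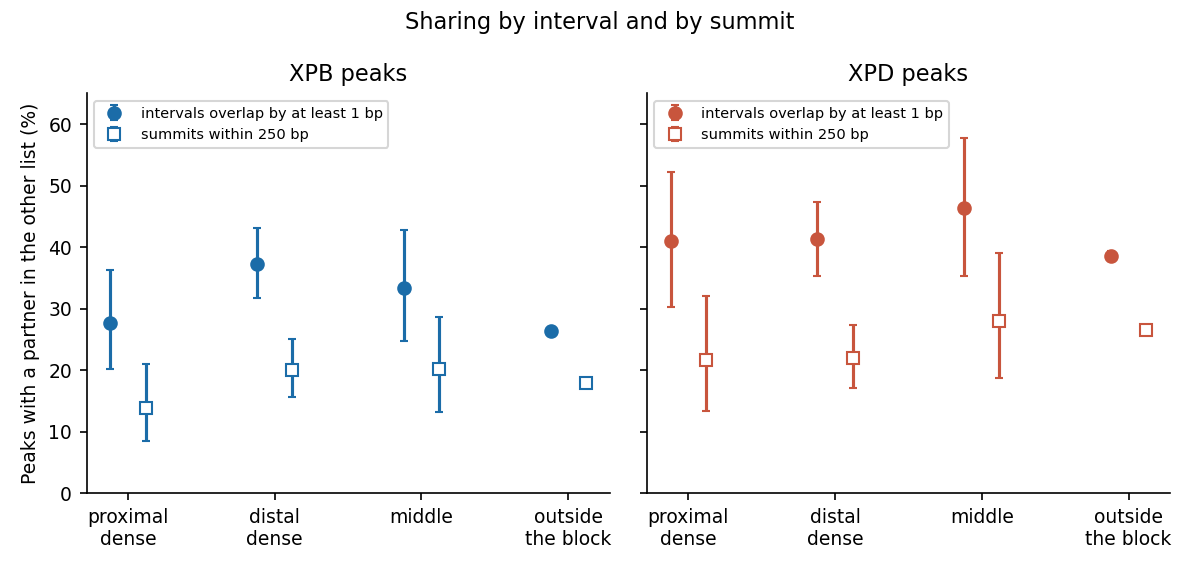
Percentage of XPB peaks (left) and XPD peaks (right) with a partner in the other list, by overlapping intervals (filled circles) and by summits within 250 bp (open squares), in the dense stretches, the middle stretch and outside the block, with exact 95% intervals. XPB sharing in the distal stretch is 37.3% by interval and 20% by summit, and outside the block 26.4 and 17.9%.

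Sharing was more frequent at higher scores in both lists, and the block and the rest of the series stood apart among the lowest scores. Among XPB peaks with scores of 150 to 200, 22.3% (17.5 to 27.7) were overlapped in the block, against 13.1% (12.5 to 13.7) outside. Among XPD peaks of that range it was 35.5% (29.3 to 42.1), against 24.6% (23.7 to 25.6). From 200 to 300 the XPB shares were 29.6% (23.0 to 36.9) in the block and 29.7% outside, and the XPD shares 41.3% (33.5 to 49.5) and 48.9%. At 300 or more, 81.4% of XPB members (71.6 to 89.0) were overlapped, against 73.0% (71.3 to 74.5) outside. For XPD the order was the other way round, with 74.5% of members (60.4 to 85.7), against 87.5% (85.8 to 89.0). The interval for these 51 XPD members lay just below that outside the block.

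The high-scoring peaks without a partner were 16 XPB and 13 XPD peaks with scores of 300 or more. The highest XPD one was at chr3:194022448-194025042, with 10 fragments and a score of 423, and its nearest XPB summit was 4577 bp away. The next was at chr3:184144343-184145289, with 17 fragments and a score of 393, 5162 bp from an XPB summit. The highest XPB one was at chr3:196362282-196364144, with 13 fragments and a score of 393, 2491 bp from an XPD summit. All 13 of the XPD peaks had 10 to 17 fragments, under the 20 taken here as tall, and all had an XPB summit within 10785 bp. Of the 16 XPB peaks 3 were tall, with 21, 22 and 23 fragments, and the nearest XPD summit was up to 44801 bp away. Among all single-list members, the median distance to the nearest summit of the other list was 5724 bp for XPB (4849 to 6841) and 4388 bp for XPD (3916 to 5472). Outside the block it was 26823 bp and 17544 bp. The high-scoring single-list peaks were picked after their values were seen.

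Where peaks were shared, their summits lay farther apart than over the rest of the series, and about as far as at 3q21. The block held 176 mutual pairs, in which each peak was the other's largest overlap, and this left 8 XPB and 7 XPD members that overlapped a peak already paired with another. The XPB and XPD summits of a pair were a median of 200.5 bp apart (interval 115 to 258), against 95.5 bp (89 to 103) for the 5360 pairs outside the block. Summits within 100 bp were 40.3% of pairs (33.0 to 48.0), where 50.7% of all pairs were that close, and summits within 250 bp were 55.7% (48.0 to 63.2), where the background was 68.5%. The distal stretch had the larger median of the dense ones, 228 bp (115 to 325) over 106 pairs, against 164 bp (57 to 309) over 32 in the proximal one and 140 bp (32 to 312) over 38 in the middle. Pairs elsewhere on chromosome 3 had a median of 145 bp (109 to 211), and those of the 3q21 block, from 123000001 to 130000000, 202 bp (108 to 282), so the intervals of both overlapped that of the distal block.

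Interval width moved with this distance. Pairs whose wider interval was under 1000 bp had a median of 84 bp in the block (51 to 139, 41 pairs), against 57 bp (52 to 63) outside. Pairs with an interval of 1000 bp or more had a median of 250 bp (163 to 320, 135 pairs), against 132 bp (118 to 145). The intervals of the block and of the rest overlapped in the narrower class and stood apart in the wider one. The wider class has no upper limit and widths were not matched within it, so the part of width in the longer distance was not tested. Among pairs scoring at least 300 in XPB and in XPD, the block had 28 pairs with a median of 54.5 bp (21 to 282), against 48 bp (41 to 57) over 1012 pairs outside, and the intervals overlapped. The libraries were made from fragments of 400 to 700 bp, so distances well under that length are near the resolution of the assay.

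The tallest member in both lists lay in the middle stretch and not in a dense one. At chr3:186500656-186502470 the XPB summit had 87 fragments and a score of 1523, and its XPD partner at chr3:186500539-186501791 had 100 fragments and a score of 1059, with the summits 3 bp apart. No other XPB member exceeded 33 fragments and no other XPD member exceeded 36. It ranked 50 by score in the whole XPB list and 71 in the XPD list. Nearby, a pair at chr3:186523817-186525055 had 23 fragments for XPB, with a score of 619, and 20 for XPD, with a score of 496, and its summits were 21 bp apart. Farther out, at chr3:190231197-190233020, an isolated site of the floor had 20 fragments for XPB and 33 for XPD, with summits 32 bp apart.

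In the distal dense stretch the tallest shared site was at chr3:197120430-197123434, with 33 fragments and a score of 1504 for XPB and 35 fragments and a score of 836 for XPD. Its summits were 37 bp apart, and at 3005 bp its interval was the widest of the XPB members. The other tall XPB summits there were at chr3:196391991-196393464, with 31 fragments for XPB and 19 for XPD, and at chr3:197676589-197677536, with 31 and 30. The next highest XPB scores belonged to neighbouring sites, one of them tall and the other not. They were at chr3:195627209-195629559, with 16 fragments and a score of 1046 for XPB and 17 fragments and a score of 485 for XPD, and at chr3:195622821-195624683, with 29 fragments and a score of 987 for XPB and 15 and 479 for XPD. The tallest XPB members with no partner lay in other stretches, at chr3:183040721-183042380, with 26 fragments and a score of 216, and at chr3:192610694-192611147, with 25 and 238. On the XPD side the tallest summit of the stretch was not shared: the peak at chr3:197581801-197582384 had 36 fragments, a score of 217 and its nearest XPB summit was 8858 bp away. Other tall XPD summits were at chr3:197093311-197094692, with 24 fragments for XPB and 30 for XPD. High XPD scores were also found at chr3:196063871-196066134, with 23 fragments for XPB and 28 and a score of 662 for XPD, and at chr3:194359585-194361798, with 26 for XPB and 29 and a score of 579 for XPD.

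In the proximal dense stretch the tallest XPB summit was at chr3:183851622-183852541, with 31 fragments for XPB and 22 for XPD. The tallest XPD summit was at chr3:184080637-184082354, with 23 fragments and a score of 602 for XPB and 28 fragments and a score of 737 for XPD, and the summits were 6 bp apart. A site at chr3:184048955-184051471 had 28 fragments and a score of 568 for XPB and 16 fragments and a score of 153 for XPD, close to the lowest listed score of 150. The highest XPB score of the stretch, 918, belonged to the peak at chr3:183966595-183968621, with 23 fragments. It overlapped 2 XPD peaks: one at chr3:183966083-183967522, with its summit 438 bp away, 17 fragments and a score of 239.6, and its largest overlap at chr3:183967525-183968473, with its summit 1426 bp away, 24 fragments and a score of 209.

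Height ratios within pairs were near those of the series. Of the 18 pairs in which neither summit was under 20 fragments, none departed by more than 2-fold from the median height ratio of all pairs. Over the series 1.19% of such pairs did, so a count of 0 among 18 is near the background. Their log2 ratio of XPB to XPD height ranged from -0.72, at the isolated floor site, to 0.49, at chr3:183851622-183852541. Over all 176 pairs 2 departed by more than 2-fold, where 2.01% of all pairs did. The median log2 ratio was -0.09 (-0.14 to 0.00) in the block and -0.11 outside, without adjustment for depth. Spearman's rho between XPB and XPD heights was 0.53 across the 176 pairs of the block and 0.60 across the 5360 outside, which describes pairs of 1 library each.

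The 3q21 block, the other long dense region of chromosome 3, had peaks of similar density, height and width. Per Mb, the dense stretches together held 60.7 XPB and 50.3 XPD peaks, against 66.4 and 49.9 at 3q21. Median XPB heights were 12 fragments in both and median XPD heights 13 in both. Median widths were 954 bp for XPB and 1091 bp for XPD in the dense stretches of distal 3q, against 970.0 bp and 1129 bp at 3q21. The overlap shares were lower in the dense stretches than at 3q21. They were 34.4% of XPB peaks (29.8 to 39.1), against 38.5% (34.1 to 43.1) at 3q21, and 41.2% of XPD peaks (36.0 to 46.5), against 50.7% (45.3 to 56.1). The intervals overlapped widely for XPB and only between 45.3 and 46.5 for XPD, and such overlap does not show that shares are equal.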

How the data were processed

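XPB ChIP-seq and XPD ChIP-seq of HT1080 cells were represented by 1 peak list each, and the input DNA had no list used here. The submitters' processing notes name the hg19 build, Bowtie 0.12.7 for alignment and MACS 1.4 for peak calling. Whether the input was the control, and other settings of the caller, are not given in the sources used here. The deposited score of each peak interval was read, by the usual MACS layout, as -10 times the log10 of the p-value, and the deposited summit signal as an unscaled fragment pileup, so no read depth is known. Scores ran from 150 to 3100.

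Peaks and summits were joined by name, converted to 1-based positions, and placed by summit. Shares carry Clopper-Pearson intervals, densities and ratios exact Poisson or conditional binomial intervals, and medians order-statistic intervals, all at 95%. No test was run and no p-value computed, since each antibody had 1 library. Peaks were named by rank: per list and stretch the 3 tallest and 3 highest-scoring, the 3 tallest without a partner, the 5 fullest bins per list, the 3 longest empty stretches, the 3 longest runs, and tall pairs over 2-fold from the median ratio; not every one is printed. The block, its stretches and these rules were chosen with earlier results of these data known. Overlap, run and interval functions were tested on simulated data. Alternatives varied edges, score thresholds, overlap rules, bin size and list length. The planned step of placing peaks at gene starts was not run. Python 3.11.15, numpy 2.4.6, pandas 2.3.3, scipy 1.17.1 and matplotlib 3.10.9 were used.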

Additional observations from a re-analysis of the deposited data

How the results depend on the processing

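Of 96 alternatives for 24 results, 55 stayed inside the 95% counting interval of the reported value (for correlations, an approximate Fisher interval), 40 moved outside it and 1 reversed. Dense stretches stayed denser than the middle in every setting run: the ratio, 4.26 for XPB and 4.91 for XPD, was 5.30 for XPB at scores of at least 200, 2.46 and 3.04 with runs counted as 1, and 9.34 and 11.6 against the last 6 Mb of the middle, an alternative chosen after seeing the data. The overlap shares (34.1 and 42.2%) were 26.3 and 32.7% when 50% of each interval had to overlap, and 18.6 and 23.0% when summits had to lie within 250 bp. For XPD the share was 54.9% when peaks under 300 were dropped from XPB and XPD alike. Members scoring 300 or more had shares of 81.4 and 74.5% against the whole other list, again chosen after seeing the data. Median spacing in the dense stretches together (7199 bp for XPB and 8124 bp for XPD) was 12707 and 15841 bp at scores of at least 200, and 30550 and 27224 bp at 300. Median XPB height in the proximal stretch was 13.5 at scores of at least 200 and 17 at 300, in the distal stretch 14 at 300, and in the middle 15 and 18.5. Median XPD height at 300 was 17 in the proximal stretch and 17.5 in the middle. Median XPB score for shared peaks alone was 259, 253 and 222 in the proximal, distal and middle stretches, and for single-list peaks 183.15 in the proximal and 192 in the distal. Median XPD score for shared peaks was 207 in the distal. The XPB to XPD number ratio at scores of at least 300 was 3 in the proximal stretch and 1.44 in the distal. With the XPB list cut to the length of the XPD list it was 1.23 (0.911 to 1.66) in the proximal, 0.825 (0.688 to 0.989) in the distal and 0.951 (0.689 to 1.31) in the middle, where that setting makes the ratio of the whole series 1. The Spearman correlation of bin counts (0.86) was 0.79 with bins of 50 kb, 0.925 with 250 kb and 0.93 with 1 Mb, 0.77 in the proximal stretch and 0.70 in the middle. Median summit distance was 54.5 bp for pairs with both scores at least 300 and 22 bp for pairs with 20 fragments in both, and the median log2 height ratio at 300 was 0.0498. No paired analysis was possible because each antibody had 1 library. Read depth is unknown and no peak under a score of 150 was listed, so a site missing from a list is not shown to be unbound.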
